A study of Homo sapiens with 12 samples.

Results

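Genes that carry, store, release or burn fatty acids were followed on 12 gene expression arrays of U937 cells. Of 10 such genes 9 were measured, among 19775 genes in all. The set is defined by gene symbol, not by a threshold on the signals, and was drawn up with earlier results of these data known. It takes in every probe set that the array's annotation pairs with FABP3, FABP4, FABP5, PLIN2, LPL, LIPA, CPT1A, ACSL1, ACSL3 or DGAT2 alone. Probe sets paired with several genes were left out. These genes had 19 such single-gene probe sets, from 1 for FABP5 to 4 for CPT1A. No probe set was paired with ACSL3 alone in the annotation used, and ACSL3 was not analysed here. One probe set stood for each gene, the one with the highest mean over the 12 arrays, and the others are given where they differ.

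U937 is a human histiocytic lymphoma line that resembles an immature monocyte, and PMA is a phorbol ester that turns it into a macrophage-like cell. All cultures, controls included, carried a TRIPZ-shRNAmir Tet-On cassette of 1 clone ID whose hairpin is directed at ZXDC1/2, and all were grown in puromycin. The 4 groups had 3 arrays each, labelled as biological replicates, and were PMA with doxycycline, PMA without doxycycline, vehicle with doxycycline and vehicle without doxycycline. Doxycycline was given at 0.5 µg/mL daily for 4 days, and PMA at 100 nM or 0.1% DMSO as vehicle followed after 2 days for a stated 3 days. No group received doxycycline without the cassette, so doxycycline and the hairpin cannot be told apart.

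Fatty acid binding proteins are small carriers that move long-chain fatty acids through the cytosol. Acyl-CoA synthetases such as ACSL1 and ACSL3 activate the acids. DGAT2 joins them to glycerol as triacylglycerol, which is kept in droplets coated by PLIN2, while LPL outside the cell and LIPA in lysosomes release them from lipoprotein lipids. CPT1A hands activated fatty acids to carnitine at the mitochondrial outer membrane, the controlled entry to oxidation. Macrophages take up much lipid and can store it as droplets, and FABP4 is best known from fat cells and macrophages.

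Promoter letters are shown for PLIN2 and CPT1A, 2 genes that differed between agents in opposite directions and have 1 promoter window each in the RefSeq table (GRCh38.p14). Each is the 250 bases before the gene's start, 5′ to 3′ in the gene's direction. PLIN2 lies at chr9:19127493-19127742 and CPT1A at chr11:68844278-68844527, both on the minus strand. Capitals mark the letters found by a search of both strands for the AP-1 motif TGANTCA, the TATA box motif TATAAA, the nuclear receptor half-site AGGTCA, the E-box CACGTG, the box named CCAAT after its letters and the SP1 box GGGCGG.
PLIN2: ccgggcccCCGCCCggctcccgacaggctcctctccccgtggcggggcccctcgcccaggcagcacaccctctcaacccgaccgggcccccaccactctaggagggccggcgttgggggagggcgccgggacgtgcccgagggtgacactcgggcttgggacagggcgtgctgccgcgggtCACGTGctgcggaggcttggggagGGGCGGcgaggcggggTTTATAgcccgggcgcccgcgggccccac
CPT1A: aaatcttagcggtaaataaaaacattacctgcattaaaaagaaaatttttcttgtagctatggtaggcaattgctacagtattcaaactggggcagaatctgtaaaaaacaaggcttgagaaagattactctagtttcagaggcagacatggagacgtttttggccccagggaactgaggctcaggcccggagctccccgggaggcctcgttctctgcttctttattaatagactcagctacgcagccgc

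The PLIN2 window is 78.0% G and C. It holds GGGCGG in 2 places, which begin 242 bases, read on the opposite strand, and 45 bases before the start. It also holds CACGTG at 69 bases and TATAAA, read on the opposite strand, at 29 bases. The CPT1A window is 44.4% G and C and holds none of the 6 motifs. Among 35116 windows of the same length, GGGCGG was in 42.6%, CCAAT in 32%, AGGTCA in 12.1%, TATAAA in 10.7%, TGANTCA in 6.57% and CACGTG in 6.34%. These matches describe letters, and absence says only that the letters are not in that window.

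The arrays of 1 group correlated at 0.987 to 0.996 over all probe sets and those of different agents at 0.954 to 0.967. Array medians lay between 5.16 and 5.22 (log2). ZXDC, the hairpin's target, read 7.39, 7.43 and 7.02 in PMA with doxycycline, against 7.96, 7.89 and 7.51 in PMA. It read 7.16, 7.25 and 7.44 in vehicle with doxycycline, against 8.01, 7.64 and 7.69 in vehicle. Signals with doxycycline lay below those without in both agents, by 0.50 and 0.49 (SE 0.16 each), which left 70.6% and 71.1% of the signal. Neither difference passed the test over all genes (limma adjusted p = 0.613 and 1). For ZXDC taken alone, the unadjusted limma p was 0.00639 in PMA and 0.00725 in vehicle. The 4 arrays numbered 1 stood apart in the ACTB signal at the 3′ end over that at the 5′ end, a measure of RNA integrity, with 1.99 to 2.72 (log2) against 0.71 to 1.64 on the other 8. In the same measure of GAPDH they did not stand apart, with 0.17 to 0.25 against 0.12 to 0.25. Of 6 monocyte and macrophage markers 4 were measured. Without doxycycline TYROBP and ITGAX were higher in PMA than in vehicle by 3.57 and 4.81 (log2). SPI1 and LYZ did not pass the test, at 0.30 and -0.55 (limma adjusted p = 0.125 and 0.0775). In that comparison every PMA array lay above every vehicle array for SPI1 and below for LYZ. The summed linear signal of the 4 was 10000 to 12700 in PMA and 6440 to 6940 in vehicle, both without doxycycline.

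PMA changed 6 of the 9 genes without doxycycline. In PMA 5 were higher than in vehicle, namely FABP4 by 128-fold in signal from a low vehicle level, LIPA by 2.90-fold, PLIN2 by 1.65-fold, FABP5 by 1.59-fold and ACSL1 by 1.59-fold. CPT1A was lower, at 34.1% of its vehicle level, and FABP3, LPL and DGAT2 did not pass. A gene counts as changed at a limma adjusted p under 0.05, Benjamini-Hochberg over all 19775 genes. By that rule 31.7% of all genes changed, 12.7% higher and 18.9% lower. These 6 genes showed no overlap between PMA arrays and vehicle arrays, as did 41.8% of all genes. The median difference was 0.67 (log2) over the 9 genes and 0.01 over all genes. In bulk RNA, fewer cells of a type and less RNA per cell cannot be told apart.

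**Figure D1:**
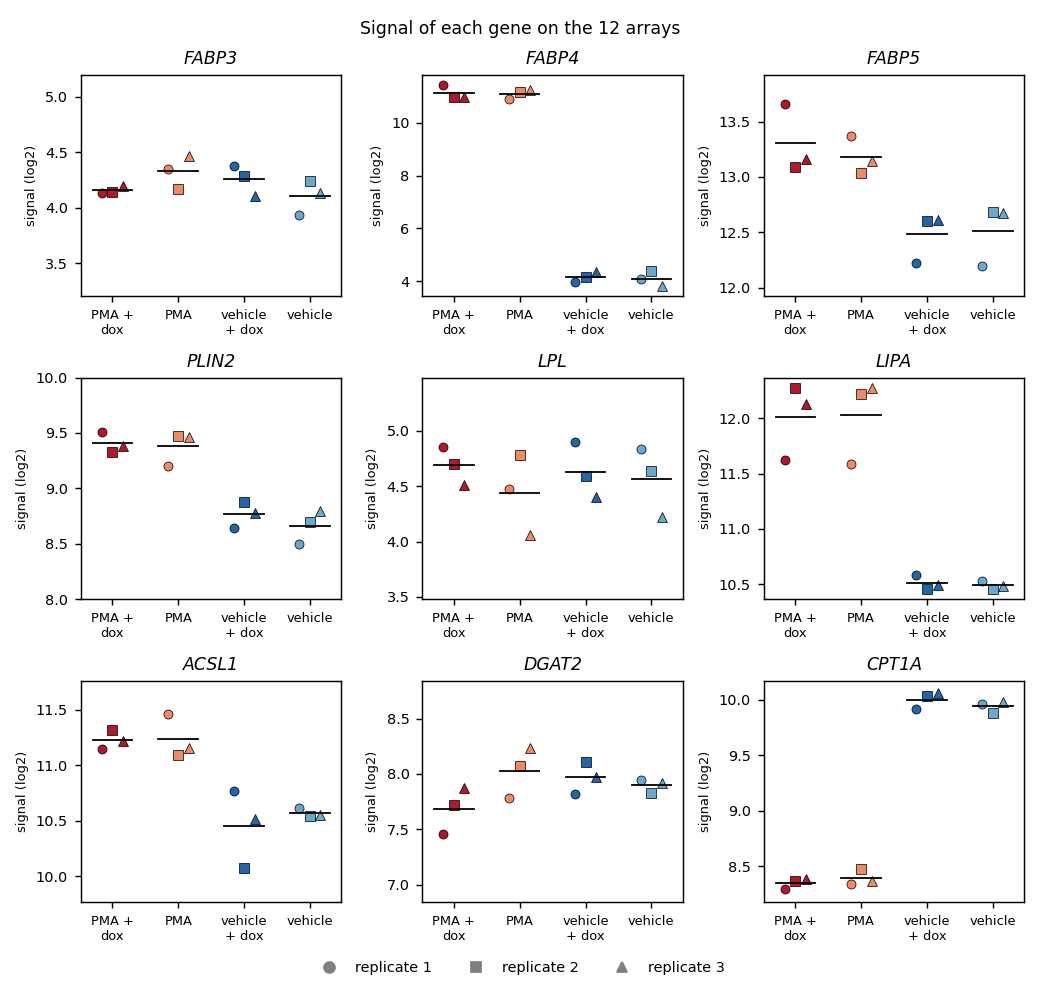
Signal (log2) of the 9 measured genes on each array, with PMA groups left and vehicle groups right. Points are arrays, shaped by replicate number, and lines are group means. FABP4, FABP5, PLIN2, LIPA and ACSL1 are higher and CPT1A lower on every PMA array than on any vehicle array.

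FABP4 made the largest change of the 9. Its signal was 11.44, 10.96 and 10.98 (log2) in PMA with doxycycline, 10.90, 11.15 and 11.25 in PMA, 3.98, 4.17 and 4.35 in vehicle with doxycycline and 4.07, 4.40 and 3.82 in vehicle. The PMA arrays lay far above the vehicle arrays, and within each agent the arrays with and without doxycycline overlapped. PMA minus vehicle was 7.00 without doxycycline (SE 0.17, limma adjusted p = 5.14e-12) and 6.96 with it (SE 0.17, adjusted p = 5.57e-12). The vehicle signal, which averaged 4.10, was not shown to lie above background, as no detection call was used, so the size of the fold is uncertain. The second FABP4 probe set also rose, by 1.06 (SE 0.18, adjusted p = 0.000501 over all probe sets) without and by 0.92 with doxycycline. The probe sets agree in direction and differ in size, and with their mean in place of the brighter one the difference was 4.03.

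FABP5, a carrier found in many cell types including epidermis and macrophages, rose less. Its only probe set carries the suffix for shared sequence, and FABP5 has near-identical pseudogenes, so part of the signal may come from copies. It read 13.66, 13.09 and 13.16 in PMA with doxycycline, 13.37, 13.03 and 13.14 in PMA, 12.23, 12.60 and 12.62 in vehicle with doxycycline and 12.19, 12.68 and 12.67 in vehicle. The agents did not overlap. On arrays numbered 1 the signal was the highest of the group in both PMA groups and the lowest in both vehicle groups. The difference was 0.67 without doxycycline (SE 0.18, limma adjusted p = 0.01) and 0.82 with it (adjusted p = 0.00232). On arrays numbered 2 and 3 alone it was 0.41 (adjusted p = 0.0122) without and 0.52 (adjusted p = 0.00289) with doxycycline. Without vehicle replicate 1 it was 0.51 and did not pass (adjusted p = 0.0527). The part of RNA integrity in this difference was not tested.

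FABP3, the carrier of heart and skeletal muscle, stayed below 4.5 (log2) on all 12 arrays and was not shown to lie above background. It read 4.14, 4.14 and 4.19 in PMA with doxycycline, 4.35, 4.17 and 4.47 in PMA, 4.37, 4.29 and 4.11 in vehicle with doxycycline and 3.94, 4.24 and 4.14 in vehicle. The groups overlapped, and PMA minus vehicle was 0.22 (95% interval -0.03 to 0.48) without doxycycline and -0.10 (-0.35 to 0.16) with it. The second FABP3 probe set lay between 3.30 and 3.62 and did not pass either. Without doxycycline the intervals of the other 2 carriers were 6.63 to 7.37 for FABP4 and 0.28 to 1.05 for FABP5. In the RefSeq table FABP5 and FABP4 flank PMP2, a carrier of peripheral nerve myelin, and FABP9 on chromosome 8. PMP2 differed by 0.10 (SE 0.12, adjusted p = 0.591) between the agents, and FABP9 was not analysed here.

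LIPA, the lysosomal acid lipase that splits cholesteryl esters and triacylglycerol taken up by the cell, rose in PMA. It read 11.62, 12.28 and 12.13 in PMA with doxycycline, 11.59, 12.22 and 12.27 in PMA, 10.59, 10.46 and 10.49 in vehicle with doxycycline and 10.53, 10.46 and 10.48 in vehicle. Every PMA array was above every vehicle array, and arrays numbered 1 were the lowest of both PMA groups. The difference was 1.53 without doxycycline (SE 0.18, limma adjusted p = 1.72e-05) and 1.50 with it (adjusted p = 1.91e-05). On arrays numbered 2 and 3 alone it was 1.78 without doxycycline. The second probe set stayed below 4 on every array and differed by 0.28 (adjusted p = 0.347), and with the mean of both probe sets LIPA differed by 0.91.

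LPL, the lipase that acts on lipoprotein triacylglycerol outside the cell, did not pass. It read 4.85, 4.70 and 4.51 in PMA with doxycycline, 4.47, 4.78 and 4.06 in PMA, 4.90, 4.59 and 4.40 in vehicle with doxycycline and 4.84, 4.63 and 4.22 in vehicle. All 4 groups overlapped. PMA minus vehicle was -0.12 (95% interval -0.55 to 0.30) without doxycycline and 0.06 (-0.37 to 0.48) with it. The second probe set lay between 2.95 and 3.49 and differed by 0.08 without doxycycline. LPL was not shown to lie above background, as no detection call was used, so a change could have been missed. Of the 2 lipases only LIPA passed, although the difference between them was not itself tested.

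ACSL1, which activates long-chain fatty acids by joining them to coenzyme A, was higher in PMA. It read 11.15, 11.32 and 11.22 in PMA with doxycycline, 11.46, 11.09 and 11.16 in PMA, 10.77, 10.07 and 10.52 in vehicle with doxycycline and 10.62, 10.54 and 10.55 in vehicle. The agents did not overlap, and the widest spread was in vehicle with doxycycline. The difference was 0.67 without doxycycline (SE 0.16, limma adjusted p = 0.00409) and 0.78 with it (adjusted p = 0.00125). The second probe set gave 0.92 (SE 0.11, adjusted p = 2.04e-05) and 0.67 (adjusted p = 0.000279).

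PLIN2, the droplet coat protein whose promoter is shown above, was also higher. It read 9.51, 9.33 and 9.38 in PMA with doxycycline, 9.21, 9.48 and 9.46 in PMA, 8.64, 8.87 and 8.78 in vehicle with doxycycline and 8.49, 8.70 and 8.80 in vehicle. No vehicle array reached a PMA array. The difference was 0.72 without doxycycline (SE 0.12, limma adjusted p = 0.000297) and 0.64 with it (adjusted p = 0.000721). Its second probe set lay between 3.73 and 4.17 on all arrays and differed by -0.06 (adjusted p = 0.824), so that the mean of both gave 0.33.

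DGAT2, the enzyme of the last step of triacylglycerol synthesis, did not pass between agents. It read 7.46, 7.72 and 7.87 in PMA with doxycycline, 7.78, 8.07 and 8.23 in PMA, 7.82, 8.11 and 7.97 in vehicle with doxycycline and 7.95, 7.83 and 7.92 in vehicle. Without doxycycline the PMA arrays spanned the vehicle arrays, and the lowest array was in PMA with doxycycline. The difference was 0.13 (SE 0.14, limma adjusted p = 0.565) without doxycycline and -0.28 (adjusted p = 0.15) with it. The second probe set differed by -0.10 without doxycycline (adjusted p = 0.807 over all probe sets) and by -0.31 with it (adjusted p = 0.344).

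CPT1A was the only one of the 9 to fall. It read 8.29, 8.37 and 8.39 in PMA with doxycycline, 8.34, 8.48 and 8.36 in PMA, 9.92, 10.03 and 10.06 in vehicle with doxycycline and 9.97, 9.89 and 9.98 in vehicle. The 6 PMA arrays lay within 0.2 of each other and far below the 6 vehicle arrays, which also lay within 0.2. The difference was -1.55 without doxycycline (SE 0.10, limma adjusted p = 3.54e-08) and -1.66 with it (adjusted p = 1.59e-08), which left 34.1% and 31.7% of the vehicle signal. The other 3 probe sets fell too, by 1.20, 1.03 and 1.01 (log2) without doxycycline and by 1.00, 0.63 and 0.78 with it. With the mean of all 4 in place of the brightest, CPT1A differed by -1.20 without doxycycline and -1.02 with it.

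**Figure D2:**
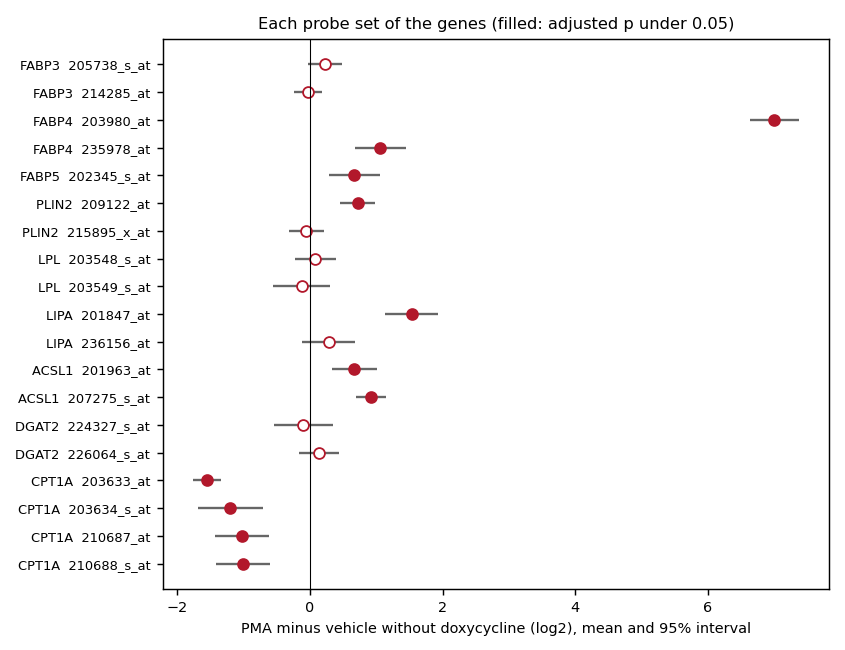
PMA minus vehicle without doxycycline (log2, horizontal axis) for each of the 19 probe sets, with the 95% interval as a line. Filled points passed at an adjusted p under 0.05 over all probe sets. All 4 CPT1A probe sets lie left of 0, and both probe sets of FABP4 and of ACSL1 lie right of it.

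Over the 19 probe sets, 7 were higher in PMA, 4 were lower and 8 did not pass without doxycycline, where 23.6% of all 54613 probe sets passed, 10.4% higher and 13.2% lower. With doxycycline the counts were again 7, 4 and 8, and 24.5% of all probe sets passed, 10.7% higher and 13.8% lower. The 4 lower ones were those of CPT1A.

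With doxycycline 5 of the 9 genes were higher in PMA and 1 was lower, where 32.5% of all genes changed, 13% higher and 19.5% lower. These were the same 6 genes, in the same direction, as without doxycycline. The 2 comparisons use different arrays but are not independent. They share 1 estimate of the spread, and deviations of doxycycline pairs of the same number correlated at 0.25 to 0.64. There was again no overlap between the agents for these 6, as for 42.5% of all genes. Over all genes, 5426 changed the same way in both, which is 86.7% of those changed without doxycycline and 84.4% of those changed with it. The median difference over the 9 genes was 0.64 (log2) with doxycycline, against -0.01 over all genes.

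**Figure D3:**
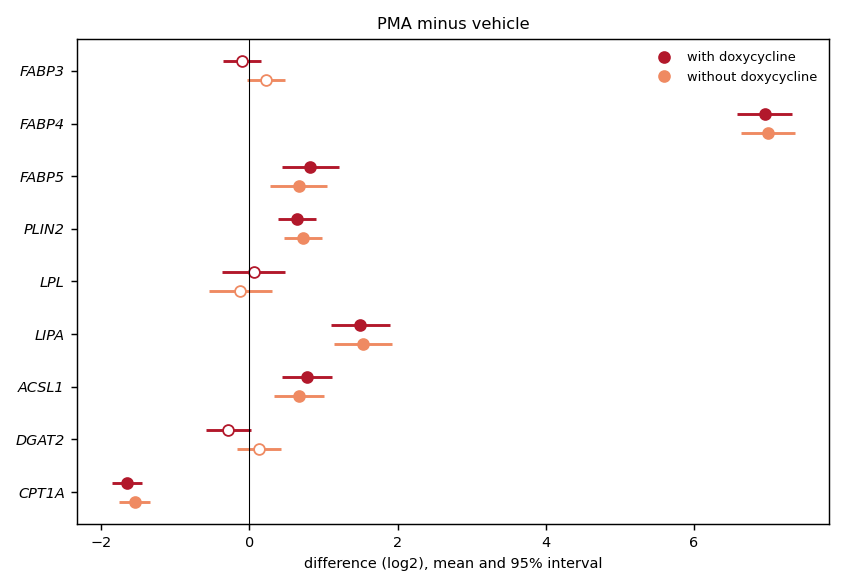
PMA minus vehicle (log2, horizontal axis) for the 9 genes, with doxycycline above and without doxycycline below in each pair. Points are differences of group means, lines are 95% intervals, and filled points passed the test. FABP4 stands near 7 and CPT1A near -1.6, and the intervals with and without doxycycline overlap for each gene.

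None of the 9 genes passed the test for doxycycline, which induces the hairpin. In PMA, 0 of 9 passed (limma adjusted p from 0.786 to 0.999), where 0.00506% of all genes did, which is HES1 alone, a repressor known as a target of Notch signalling, higher by 1.48 (adjusted p = 0.0214). With the 6 doxycycline pairs as a block 53 genes passed in PMA and still 0 of the 9. In vehicle 0 of 9 passed and 0% of all genes did. Averaged over both agents, and in the interaction that asks if the doxycycline difference depends on PMA, 0 of 9 passed as well, and 0% of all genes. At an unadjusted p under 0.05 in limma, 1 of the 9 differed in PMA, where DGAT2 was lower with doxycycline, and 0 in vehicle, averaged and in the interaction. Over all 19775 genes that looser threshold took in 501 higher and 713 lower in PMA, 312 and 198 in vehicle, 532 and 666 averaged, and 226 and 292 in the interaction.

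DGAT2 had the smallest p of the 9 in PMA. Doxycycline minus none was -0.34 there (SE 0.14, 95% interval -0.64 to -0.04), with a limma unadjusted p of 0.0273 and an adjusted p of 0.786. The signals of the 2 groups overlapped. Arrays of the same number differed by -0.32, -0.35 and -0.36, so the signal with doxycycline was lower in 3 of 3 pairs. In vehicle the pairs differed by -0.13, 0.28 and 0.05, with a mean of 0.07 (95% interval -0.23 to 0.37). The interaction was -0.41 (limma unadjusted p = 0.055, adjusted p = 1). With each of the 6 pairs as a block, the adjusted p in PMA was 0.175. The second probe set differed by -0.20 in PMA.

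FABP3 had the next smallest p in PMA, with -0.17 (limma unadjusted p = 0.171, adjusted p = 0.893), and the smallest in vehicle, with 0.15 (unadjusted p = 0.225, adjusted p = 1), and PLIN2 came next in vehicle, with 0.10 (adjusted p = 1). Averaged over agents the smallest p values were those of DGAT2, with -0.14 (adjusted p = 0.898), and LPL, with 0.16 (adjusted p = 0.915). For the 6 genes that PMA changed, the 95% intervals of the doxycycline difference in PMA ran from -0.34 to 0.40 for FABP4, from -0.26 to 0.51 for FABP5, from -0.41 to 0.38 for LIPA and from -0.34 to 0.33 for ACSL1. They ran from -0.23 to 0.28 for PLIN2 and from -0.25 to 0.16 for CPT1A. These bounds, from 3 arrays a group and the fit without a block, hold the differences compatible with the data. They are not limits of detection.

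**Figure D4:**
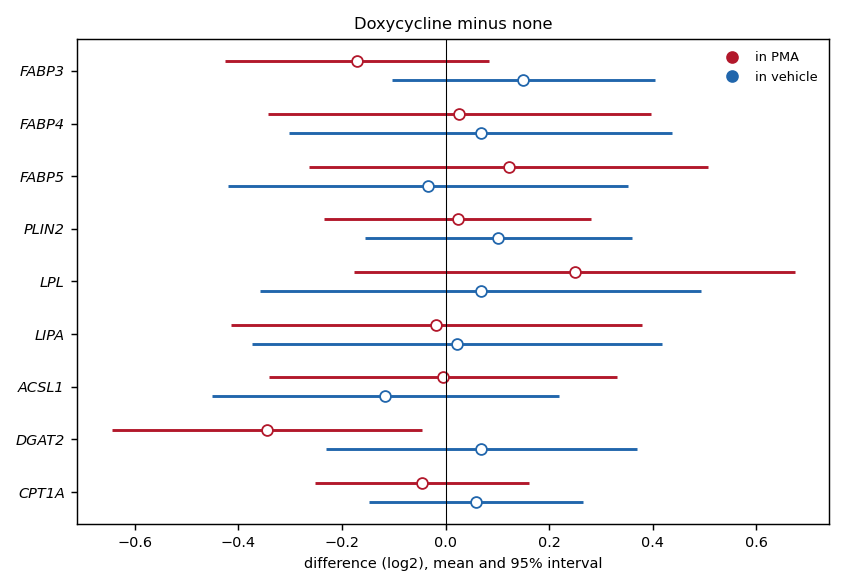
Doxycycline minus none (log2, horizontal axis) for the 9 genes, in PMA above and in vehicle below in each pair. Points are differences of group means and lines are 95% intervals. No gene passed the test, and DGAT2 in PMA is the one interval that does not reach 0.

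Other genes of fatty acid handling were taken from a list of 65, of which 60 were measured. FABP9, FABP12, BSCL2, AGPAT3 and CPT1B were not analysed here. Without doxycycline 17 were higher in PMA, 7 were lower and 36 did not pass, with a median of 0.12 (log2). Of all genes 31.7% changed, 12.7% higher and 18.9% lower, the shares to set beside the counts by role below. With doxycycline 16 were higher and 6 lower, where 13% of all genes were higher and 19.5% lower. All 22 also changed, in the same direction, without doxycycline, as did 84.4% of all genes that changed with it. For each role, the passing genes with the largest rise and the largest fall are described, with PPARG, PPARD, CD36 and DGAT1.

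Among genes of uptake, 2 of 8 rose and 2 fell. CD36, the scavenger receptor that takes up fatty acids and oxidised lipoproteins, read 7.95, 10.03 and 9.75 in PMA with doxycycline, 9.35, 10.43 and 10.44 in PMA, 5.07, 6.36 and 6.46 in vehicle with doxycycline and 5.93, 6.98 and 6.38 in vehicle. All PMA arrays lay above all vehicle arrays, and in each group the array numbered 1 was the lowest. It rose by 3.65 (SE 0.51, limma adjusted p = 6.29e-05). SLC27A2, a fatty acid transporter with synthetase activity, fell by 1.19 (SE 0.23, adjusted p = 0.00108). Of 3 acyl-CoA synthetases only ACSL4, which prefers arachidonic acid, passed, higher by 1.46 (SE 0.22, adjusted p = 0.000155).

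In triacylglycerol synthesis 4 of 11 genes rose and 1 fell. GPAT3, which adds the first acyl chain to glycerol phosphate, averaged 9.53 ± 0.36 in PMA and 7.41 ± 0.06 in vehicle (SD, n = 3 each), higher by 2.13 (SE 0.17, limma adjusted p = 3.41e-07). GPAM, the mitochondrial enzyme of the same step, fell by 0.66 (SE 0.13, adjusted p = 0.00113). GPAT4, another enzyme of that step, named after its value was seen, rose by 0.52 (SE 0.15, adjusted p = 0.0125), so that 2 of the 3 rose and 1 fell. DGAT1, which catalyses the same last step as DGAT2, differed by 0.23 (SE 0.13, adjusted p = 0.217), so neither DGAT gene passed. Of the 2 sterol ester synthesis genes 0 passed, also at an unadjusted p under 0.05.

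Among 11 droplet coat genes 2 rose and 2 fell without doxycycline, and 2 rose and 1 fell with it. PLIN4, a coat protein of nascent droplets, rose by 0.65 (SE 0.15, limma adjusted p = 0.004). It averaged 5.06 in vehicle, where it was not shown to lie above background. CIDEB, a droplet fusion protein of liver, fell by 0.50 (SE 0.15, adjusted p = 0.018). In lipolysis 3 of 6 rose and 0 fell without doxycycline, and 2 of 6 rose and 0 fell with it. MGLL, which splits monoacylglycerol, averaged 12.03 ± 0.06 in PMA and 9.41 ± 0.15 in vehicle (SD, n = 3 each), higher by 2.62 (SE 0.14, adjusted p = 6.66e-09). Of 5 further fatty acid binding proteins only FABP6, the bile acid carrier of ileum, passed, and it fell by 2.02 (log2, SE 0.22, adjusted p = 6.15e-06). FABP6 averaged 4.96 in PMA, where it was not shown to lie above background, so the size of the fall is uncertain. Of the 3 lipase partners and of the 3 other genes of mitochondrial import 0 passed. At an unadjusted p under 0.05 in limma the first held 0 and the second 1, CPT2, named after its value was seen (-0.48, adjusted p = 0.0741).

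Among 8 transcriptional regulators 5 rose and 1 fell. PPARG, the nuclear receptor known to drive FABP4 in fat cells, averaged 9.66 ± 0.19 in PMA and 8.77 ± 0.09 in vehicle (SD, n = 3 each), higher by 0.89 (SE 0.14, limma adjusted p = 0.000162) without doxycycline and by 0.43 (adjusted p = 0.0249) with it. PPARD, a related fatty acid receptor, rose by 1.54 (SE 0.14, adjusted p = 1.16e-06). PPARGC1A, a coactivator of mitochondrial and oxidation genes, fell by 2.67 (SE 0.48, adjusted p = 0.000524). It read 6.20, 4.87 and 4.75 in PMA and 8.70, 7.56 and 7.57 in vehicle, so arrays numbered 1 were the highest of both groups and the groups still did not overlap. The PMA signals of 4.87 and 4.75 were not shown to lie above background.

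**Figure D5:**
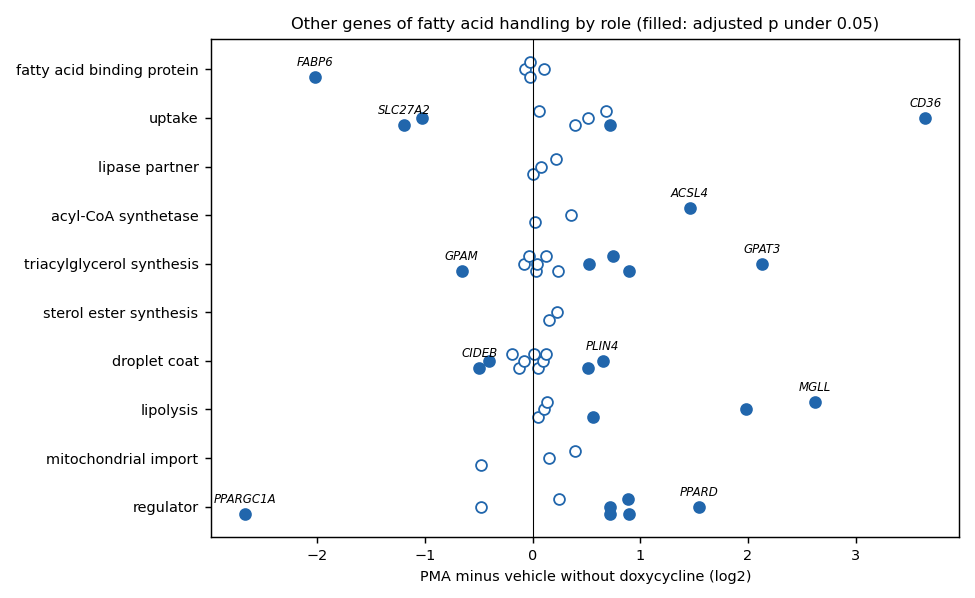
PMA minus vehicle without doxycycline (log2, horizontal axis) for the 60 other genes of fatty acid handling, 1 row per role. Filled points passed at an adjusted p under 0.05, and names mark the largest passing change in each direction of a role. CD36, MGLL and GPAT3 lie farthest right, and PPARGC1A and FABP6 farthest left.

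Doxycycline changed 0 of these 60 genes in PMA, in vehicle, averaged or in the interaction (limma). At an unadjusted p under 0.05, 1 of the 60 was lower in PMA, against 713 of all 19775 genes lower and 501 higher, and 1 was higher in vehicle, against 312 of all genes higher and 198 lower. They are given only to account for the list, namely SOAT1, a sterol ester synthesis enzyme (-0.40, adjusted p = 0.491), and MOGAT2, an acyltransferase (0.30, adjusted p = 1), both singled out after their values were seen. Averaged over agents 1 was higher, GPIHBP1 (0.25), and 2 were lower, SLC27A2 (-0.38) and SOAT1 (-0.23), and in the interaction 2 were lower, PLIN1 (-0.35) and PPARG (-0.45), none with an adjusted p under 0.05 and all named after their values were seen.

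Markers of other cell types that use these genes were read beside them. Of 12 measured markers of fat, muscle, liver and lymphocytes 2 were higher in PMA without doxycycline and 0 were lower. Of all genes 12.7% were higher and 18.9% lower. The 2 markers are CIDEC, a droplet protein of fat cells also on the list of droplet coat genes (0.51, limma adjusted p = 0.00859), and MB, the oxygen store of muscle (1.98, adjusted p = 8.21e-05). Summed signals on the linear scale were 161 to 163 in PMA and 127 to 150 in vehicle for the 5 fat cell markers, and 97.4 to 176 in PMA and 66.4 to 77.5 in vehicle for the 3 muscle markers. For the 3 liver markers they were 91.2 to 106 in PMA and 95.5 to 99.4 in vehicle. The defining fat cell gene ADIPOQ averaged 2.64 ± 0.28 in PMA and 2.76 ± 0.15 in vehicle (log2, SD, n = 3 each), and ALB of liver averaged 3.17 ± 0.27 in PMA and 3.23 ± 0.13 in vehicle. The part of such cells or programmes in the results was not tested.

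Genes outside these lists with the most similar pattern were found by the Euclidean distance over the 4 group means, each gene centred on its own mean. For FABP4 these were IER3, at a distance of 0.228, GPR34, at 0.241, and EMP1, at 0.317, which rose by 6.98, 7.01 and 7.39. For LIPA they were OAS3, RAB20 and NEK6, at 0.0196, 0.0381 and 0.0406. For CPT1A they were AURKA, CLTCL1 and USP13, at 0.0278, 0.0318 and 0.0360. The measure rests on 4 means from the same 12 arrays and describes likeness only.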

How the data were processed

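RNA of 12 U937 cultures was hybridised to Affymetrix HG-U133 Plus 2.0 arrays. The deposited values are log2 signals made by the authors with RMA, per the submitters' processing notes; the RMA version is not given in the sources used here. No further scaling was applied. Of 54675 probe sets, 62 were controls, 41091 paired with 1 gene, 1801 with several and 11721 with none in the annotation table, and symbols were updated through RefSeq (41037 updated, 54 kept). Each gene was read through its probe set of highest mean signal, which left 19775 genes. Gene tests leave out probe sets paired with several genes or with none.

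The means of the 4 groups were fitted in limma 3.58.1 (R 4.3.3, lmFit then eBayes, 8 residual and 5.6 prior degrees of freedom). Tests were two-sided, with Benjamini-Hochberg adjustment over all genes, or over 54613 probe sets, and a threshold of 0.05. The number of arrays limits the precision.

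Doxycycline pairs of the same number correlated in their deviations from the group means at 0.64, 0.29 and 0.32 in PMA and 0.57, 0.25 and 0.31 in vehicle, which meets the rule for pairing (over 0.1). Pairs across agents gave -0.01 to 0.20 and do not all meet it. The tests reported have no block, and fits with pairs or numbers as a block are alternatives.

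The genes and lists were chosen with earlier results of these data known. Named were all 10 genes, the largest rise and fall of each role, PPARG, PPARD, CD36 and DGAT1, the 3 nearest patterns of the 3 genes with the largest differences, and the 2 smallest p values where doxycycline changed none.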

Additional observations from a re-analysis of the deposited data

How the results depend on the processing

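Of the processing choices 20 alternatives were run, 12 of which leave out 1 array each. The call of 1 of the 9 genes changed, that of FABP5 for PMA against vehicle without doxycycline when vehicle replicate 1 was left out (0.51, limma adjusted p = 0.0527). FABP4, LIPA, PLIN2, ACSL1 and CPT1A kept their direction and passed in both PMA comparisons under each alternative that tested them. Without probe sets of shared sequence 6 of the 9 genes could be tested and 4 rose, since FABP5, LPL and DGAT2 then had no probe set left. With the replicate block, in which replicate numbers 1 to 3 are a block, FABP5 differed by 0.67 (adjusted p = 0.0133) and DGAT2 in PMA had an adjusted p of 0.384, and no call of the 9 genes changed. Leaving out 1 array at a time moved the count of higher genes among the 60 other genes between 14 and 22 without doxycycline and between 12 and 17 with it.

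No doxycycline comparison called any of the 9 genes under any of the 20 alternatives, and the lowest adjusted p was 0.175 in PMA and 0.88 in vehicle. Over all genes the count for doxycycline in PMA was 1. It was 53 with 6 pairs as a replicate block, 9 on arrays numbered 2 and 3 alone, 2 with the replicate block over all groups and 0 with the mean of probe sets or without shared sequences. It was 1 without replicate 1 of any group but PMA with doxycycline and without vehicle replicate 2, and 0 without each of the other arrays. The averaged comparison called 0 genes, against 3 on arrays numbered 2 and 3 alone and 1 with either block, and the interaction 0, against 1 with either block or without PMA replicate 1. Differences that did not pass changed sign in 3 and 2 of 167 values of the PMA comparisons without and with doxycycline. In the doxycycline comparisons they did so in 17 values in PMA, 12 in vehicle, 27 averaged and 14 in the interaction, of 176 each. The 3 arrays a group limit what could be detected for doxycycline.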

Other observations

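Several further genes of fatty acid and sterol ester handling changed between the agents without doxycycline and were singled out after their values were seen. NCEH1, a hydrolase of cholesteryl esters, averaged 9.22 ± 0.30 (log2) in PMA and 7.24 ± 0.16 in vehicle (SD, n = 3 each), higher by 1.98 (limma adjusted p = 6.64e-06), beside LIPA, which acts on the same lipids in lysosomes. LPIN1 and LPIN2, phosphatidate phosphatases that make the diacylglycerol used by DGAT enzymes, rose by 0.90 and 0.74 (adjusted p = 0.000133 and 0.00022), while LPIN3 differed by 0.03 (adjusted p = 0.91). Of the regulators, RXRA, the partner receptor of the PPAR and LXR families, rose by 0.72 (adjusted p = 8.8e-05) and PPARA by 0.72 (adjusted p = 0.00119). NR1H3, which encodes LXR alpha, rose by 0.89 (adjusted p = 0.00826). On arrays numbered 1 NR1H3 read 6.04 in PMA and 5.92 in vehicle, closer than on arrays numbered 2 and 3 (6.89 and 6.79 against 5.46 and 5.66).

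SLC27A5, a bile acid and fatty acid ligase of liver, fell by 1.03 (adjusted p = 4.21e-05), as did SLC27A2 of the same family, while SLC27A1 rose by 0.72 (adjusted p = 0.0222). On arrays numbered 1 SLC27A1 read 7.58 in both PMA and vehicle, so its rise came from arrays numbered 2 and 3.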
